A study of Mus musculus with 176 samples.

Results

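*Asap1*, *Tbc1d4*, *Rnf19a*, *Tox*, *Tox2* and *Maf* were followed across single CD4 T cells of adult female C57BL/6J mice that had received the apolipoprotein B peptide P6, first in complete and later in incomplete Freund's adjuvant. These 6 genes were read out of 53546 gene names, and each was listed once in the count table. *Asap1*, *Tbc1d4* and *Rnf19a* were chosen by their measured values, because they had been seen at low levels in clonally expanded P6-binding cells. Their levels in that comparison are therefore a description and not a result. The other 3 genes were added for their known links to follicular T cells. The cells were antigen-experienced CD4 T cells from draining lymph nodes, index-sorted by an I-Ab tetramer that carries P6. All 32 tetramer-binding cells (P6+) came from 1 mouse, and cells that did not bind the tetramer (P6-) were sorted from a smaller portion of the stained sample, 176 cells in all. Each group was treated as 1 sample. No test was made between groups, and the intervals given cover counting error only.

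Follicular helper T cells are the CD4 T cells that help B cells in lymphoid follicles. They are defined by the transcriptional repressor Bcl6 and the follicle-homing receptor CXCR5, and the TCF-1 protein, encoded by *Tcf7*, promotes Bcl6 expression early in their development. The high-mobility-group factors TOX and TOX2 and the leucine-zipper factor c-MAF, encoded by *Maf*, are expressed in follicular helper cells, and c-MAF also drives IL-10 and is present in subsets of regulatory T cells. ASAP1 activates the GTPase cycle of ARF proteins and acts on membrane traffic and the actin cytoskeleton. TBC1D4, also called AS160, acts on RAB proteins and holds back glucose-transporter traffic until AKT phosphorylates it. RNF19A, also called dorfin, is an E3 ubiquitin ligase of the RING-between-RING type.

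On GRCm38, *Asap1* lies at chr15:64086857-64382919 and *Rnf19a* at chr15:36239933-36283147, both on the minus strand. *Tbc1d4* lies at chr14:101442360-101609191, *Tox* at chr4:6686353-6991557 and *Maf* at chr8:115682942-115707794, also on the minus strand, while *Tox2* lies at chr2:163203125-163324170 on the plus strand. All 6 are protein-coding. The RefSeq promoter table (GRCm38.p6) held windows for 2 of the 6 genes. Windows of these 2 genes only were at hand, and they are shown for the motif search that follows. The 250 bases before the start of *Tbc1d4* are chr14:101609192-101609441 (minus strand). For *Tox2*, the first start (chr2:163202877-163203126, plus strand) and an internal start (chr2:163225203-163225452, plus strand) are given. Capitals mark a match to CTTTGA, the core of the TCF/LEF motif, on either strand.

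Tbc1d4: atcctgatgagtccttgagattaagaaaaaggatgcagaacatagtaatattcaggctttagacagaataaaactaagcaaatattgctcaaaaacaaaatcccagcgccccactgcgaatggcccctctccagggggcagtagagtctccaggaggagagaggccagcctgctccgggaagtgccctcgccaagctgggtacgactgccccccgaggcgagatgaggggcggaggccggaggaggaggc
Tox2, first start: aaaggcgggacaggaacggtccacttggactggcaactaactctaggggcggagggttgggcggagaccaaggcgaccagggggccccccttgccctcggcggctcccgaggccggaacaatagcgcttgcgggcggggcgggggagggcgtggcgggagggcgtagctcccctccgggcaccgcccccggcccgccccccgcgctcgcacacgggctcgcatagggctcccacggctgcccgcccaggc
Tox2, internal start: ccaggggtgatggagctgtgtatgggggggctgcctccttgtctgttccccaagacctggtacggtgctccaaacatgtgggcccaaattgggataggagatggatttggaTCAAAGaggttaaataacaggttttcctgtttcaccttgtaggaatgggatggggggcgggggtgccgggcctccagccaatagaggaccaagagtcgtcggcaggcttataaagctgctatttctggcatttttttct

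CTTTGA occurred once in the *Tox2* window of the internal start and in neither of the other windows shown, and it was present in 13.8% of all 32851 windows of 250 bases. The motif TTCNNNGAA, to which STAT and BCL6 proteins are known to bind, was in none of the 3 windows and in 7.02% of all windows. These are letter matches in short windows, and reads counted per gene do not tell which start was used.

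The sequenced P6+ cells held 956280 to 3332191 reads each. Limits of 500000 reads, 2000 genes and 10% mitochondrial reads were passed by 161 of the 176 cells, among them all P6+ cells, and only passing cells are used below. P6+ cells were split by reads of *Trbv13-2*, the V segment of the β chain of the major expanded clone. The paper reported minor expanded clones too, and unexpanded cells that shared a chain with the major clone. The split is therefore not one by clone. The 16 cells with *Trbv13-2* held 48 to 780 of these reads (median 267), and the 16 cells without it held 0 or 1. Another *Trbv* segment reached 10 reads in 11 of the 16 cells without *Trbv13-2*, and in 10 of the 16 cells with it. The median cell with *Trbv13-2* held 4596.5 genes and the median cell without it held 4222, against 3432 in P6- cells. All P6+ cells and 11 of the passing P6- cells shared 1 of the 8 prefixes in the cell names. *Cd3e* reached 10 reads in 16 and 12 of the 16 cells with and without *Trbv13-2*, but *Cd4*, on which cells had been sorted, reached 10 reads in only 8 of 16 in each. A gene with few reads in a cell is therefore not shown to be off.

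Markers of other cells were looked at beside the split. None of the 2 CD8, 10 myeloid or 6 NK cell genes reached 10 reads in any P6+ cell. Of 12 B cell genes, only *Ighm*, *Cd74* and *Cd79b* did, with summed levels of 2.35 to 7726 cpm (reads per 1000000, median 1967) in cells with *Trbv13-2* and 0.741 to 2221 cpm (median 2.68) in cells without. *Cd79a*, *Ms4a1* and *Pax5* were at 0 in both groups. Of 8 cycling genes, 7 reached 10 reads in a cell with *Trbv13-2* and 1 in a cell without, and their pooled level was 1209 against 38.1 cpm. *Foxp3*, the lineage factor of regulatory T cells, reached 10 reads in 9 of 16 and 2 of 16 cells, and was at 451 against 95.5 cpm.

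*Tbc1d4* separated the P6+ cells by *Trbv13-2* more than any of the other 5 genes. In the 16 cells with *Trbv13-2* it ranged from 0 to 4.28 cpm with a median of 1.11, and none of them reached 10 reads (0%, exact binomial 95% interval 0 to 20.6%). In the 16 cells without *Trbv13-2* it ranged from 0 to 2945 cpm with a median of 210, and 9 cells held between 225 and 6490 reads (56.2%, interval 29.9 to 80.2%). The cells without *Trbv13-2* thus formed a high and a low set, and the low set overlapped the cells with *Trbv13-2*. Pooled over cells, *Tbc1d4* was at 1.16 cpm (exact Poisson 95% interval 0.807 to 1.61) against 868 cpm (857 to 878), a log2 ratio of -8.65 with a pseudocount of 1 cpm. That was the lowest ratio of the 7792 genes with a mean of at least 5 cpm over both groups. Of the 9 cells with *Tbc1d4*, 8 held 10 reads of another *Trbv* segment. At a limit of 1 read, 15 of 16 cells on either side held *Tbc1d4*, so the separation is one of read number. The source of the 1 to 5 reads in cells with *Trbv13-2* was not tested.

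*Rnf19a* followed the same split in fewer cells. Among cells with *Trbv13-2* it ranged from 0 to 48.8 cpm (median 0.589), and 1 cell, P6+ cell 2, held 57 reads and supplied 73.1% of the pooled reads. That cell held 48 *Trbv13-2* reads, the lowest number on that side. Among cells without *Trbv13-2* it ranged from 0 to 2129 cpm (median 1.36), and the 5 cells above 10 reads held 1714 to 4461 reads. Pooled levels were 2.58 cpm (2.04 to 3.22) and 497 cpm (489 to 505), a log2 ratio of -7.12. The medians lay close together because 11 of the 16 cells without *Trbv13-2* were as low as those with it, and the pooled difference rested on the other 5.

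*Asap1* was the least separated of the 3 genes chosen by this contrast. It ranged from 0 to 282 cpm (median 0) in cells with *Trbv13-2*, where P6+ cell 21 alone held 887 reads, 98.9% of the pooled reads. In cells without *Trbv13-2* it ranged from 0 to 1042 cpm (median 0.619), and 5 cells held 171 to 2013 reads. Pooled levels were 29.7 cpm (27.8 to 31.7) and 205 cpm (200 to 210), a log2 ratio of -2.75. Without the cell with the most reads in each group the ratio was -6.74. The 1 positive cell with *Trbv13-2* reached the range of the positive cells without it, so the groups overlapped.

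*Tox* and *Tox2*, related factors of the same family, were both lower in the pooled cells with *Trbv13-2*, but on few cells. *Tox* ranged from 0 to 394 cpm (median 0.658) with *Trbv13-2* and from 0 to 1332 cpm (median 12.7) without it, with 10 or more reads in 2 and 8 cells. Its pooled levels were 29.2 cpm (27.3 to 31.2) and 244 cpm (238 to 249.5), a log2 ratio of -3.02. The 2 positive cells with *Trbv13-2*, P6+ cells 31 and 11, lay within the range of those without it. *Tox2* ranged from 0 to 837 cpm (median 0.150) and from 0 to 2468 cpm (median 0.577), and reached 10 reads in 2 cells of each group (12.5%, interval 1.55 to 38.3%). A single cell supplied 97.8% and 97.4% of its pooled reads, so that the pooled levels of 46.7 and 192 cpm and the log2 ratio of -2.01 compare P6+ cell 3 with P6+ cell 16. The mean over cells of log2(cpm + 1) differed by only -0.41, which ends the call of a 2-fold difference for *Tox2*.

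*Maf* was the exception among the 6 genes. It ranged from 0 to 615 cpm (median 35.2) with *Trbv13-2* and from 0 to 1125 cpm (median 2.68) without it. Of the cells with *Trbv13-2*, 12 held 11 to 1267 reads (75%, interval 47.6 to 92.7%), and of those without, 8 held 11 to 1765 reads (50%, interval 24.7 to 75.3%). Both the ranges and the intervals of the shares overlapped. The numbers depend on the limit, with 10 and 3 cells at 50 reads, and 10 and 4 cells at 10 reads after thinning. Pooled levels were 126.8 cpm (122.8 to 130.9) and 97.1 cpm (93.6 to 100.8), a log2 ratio of 0.38. P6+ cell 6 supplied 62.4% of the reads without *Trbv13-2*. Without the top cell of each group the ratio was 1.22, and the difference of the mean log2(cpm + 1) was 2.04, so that *Maf* was past 2-fold higher with *Trbv13-2* in both of these settings. It was within 2-fold in the other alternatives run, at 0.17 and 0.10 with *Trbv13-2* limits of 1 and 50 reads, and at -0.06 without cells that held 10 *Cd74* reads, where the sign turned.

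**Figure D1:**
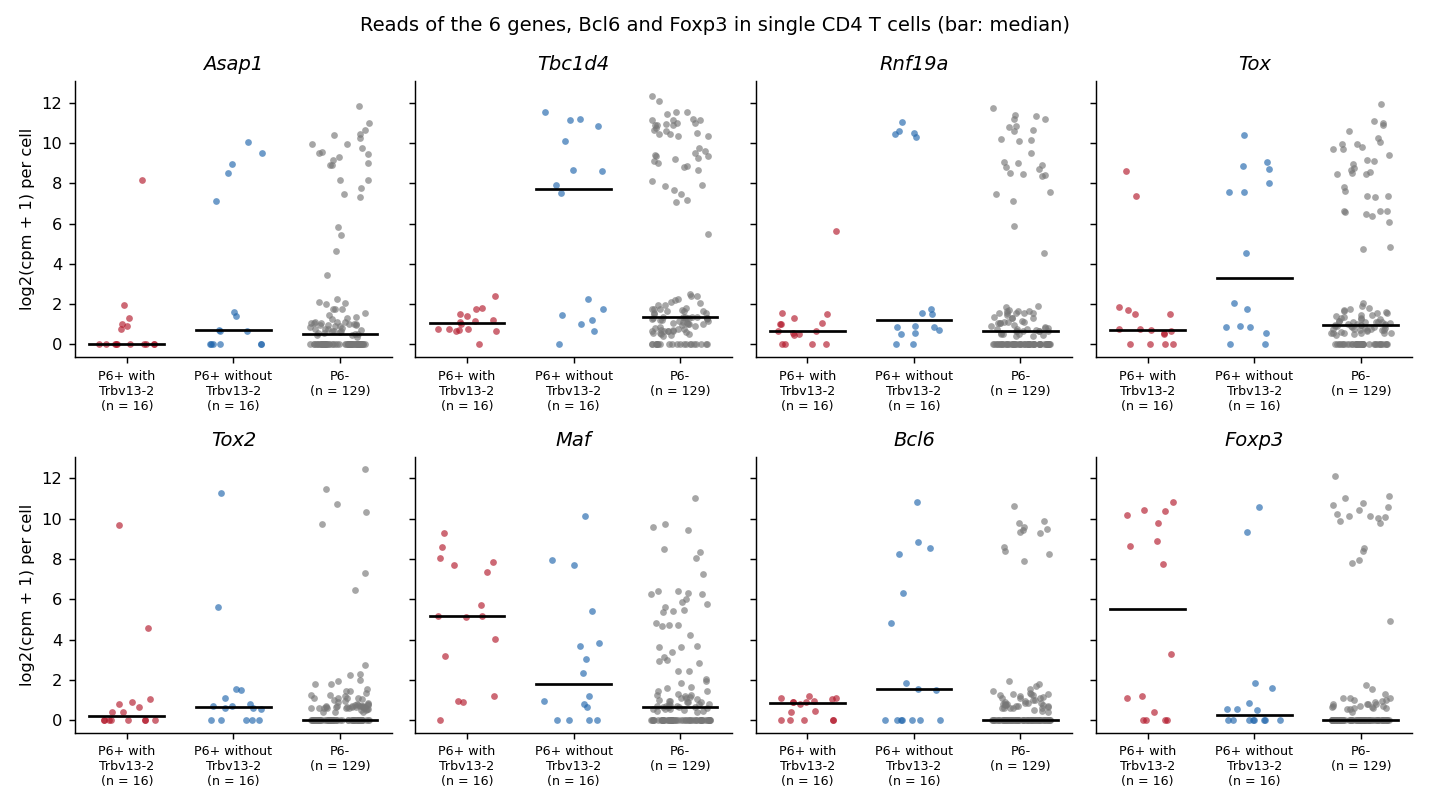
Level of each gene per cell, as log2(cpm + 1), in P6+ cells with and without *Trbv13-2* and in P6- cells. Each point is 1 cell and the bar is the median. No point of *Tbc1d4* among cells with *Trbv13-2* exceeds 4.28 cpm, whereas *Maf* has its highest median there.

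In this split, 5 of the 6 genes were past 2-fold lower with *Trbv13-2* and none past 2-fold higher. Of all 7792 genes, 33% were past 2-fold lower and 34.4% past 2-fold higher. Since 3 of the 5 were chosen by this contrast, nothing is read from the count. The members lay at different places among all genes, *Rnf19a* with 1.14% of genes at or below its ratio, *Tox* with 17.9%, *Asap1* with 18.96%, *Tox2* with 22.9% and *Maf* with 56.4%. The split was then read without cells that carried other genes that moved with it, and the part of those genes in the result was not tested. Without cells that held 10 or more *Foxp3* reads, 7 and 14 cells remained, and the log2 ratios were -8.82 for *Tbc1d4*, -8.09 for *Rnf19a*, -7.48 for *Asap1*, -7.47 for *Tox2*, -2.45 for *Tox* and 0.39 for *Maf*. In an alternative chosen after the data were seen, cells that held 10 reads of a cycling gene were left out, and 10 and 15 cells remained. The log2 ratios were then -8.79 for *Tbc1d4*, -8.20 for *Rnf19a*, -7.53 for *Asap1*, -2.81 for *Tox*, -1.61 for *Tox2* and 0.25 for *Maf*. In another, cells that held 10 *Cd74* reads were left out (6 and 12 cells remained), with -9.08 for *Tbc1d4*, -8.21 for *Rnf19a*, -7.47 for *Asap1*, -4.11 for *Tox*, -6.11 for *Tox2* and -0.06 for *Maf*. Among these settings *Tox2* varied most. After all cells were thinned to 500000 reads, *Tbc1d4* was at -7.78, *Rnf19a* at -6.95 and *Asap1* at -3.22.

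Pooled levels were also set per length of annotated exons, where the low places of *Tbc1d4*, *Rnf19a* and *Asap1* with *Trbv13-2* follow from how they were chosen and are a description. With *Trbv13-2*, *Maf* was highest at 15.4 cpm per kb, followed by *Tox2* at 13.7, *Asap1* at 3.97, *Tox* at 3.84, *Rnf19a* at 0.582 and *Tbc1d4* at 0.151. The places of *Tox2* and *Asap1* rested on 1 cell each, with 97.8% and 98.9% of the reads. Without it, *Tbc1d4* (113.04 cpm per kb) and *Rnf19a* (112.03) came first, *Tox2* (56.3), *Tox* (32.03) and *Asap1* (27.4) followed, and *Maf* (11.8) was last. P6- cells had the order *Tbc1d4* (62.9), *Rnf19a* (52.7), *Tox* (31.8), *Tox2* (23.3), *Asap1* (21.2) and *Maf* (5.02). Single cells spread from 0 upwards for every gene in each group, so the ranges over cells overlapped between all neighbours in each order.

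The genes were then counted cell by cell. Among cells with *Trbv13-2*, 3 held none of the 6 genes at 10 reads, 8 held 1 and 5 held 2. Among cells without it, 1 held none, 3 held 1, 6 held 2, 4 held 3, 1 held 4 and 1 held all 6. The cell with all 6, P6+ cell 13, held 5031 *Tbc1d4*, 3946 *Rnf19a*, 1330 *Asap1*, 1241 *Tox* and 11 *Maf* reads together with 1003 *Bcl6* reads. It held 4 *Tcf7* reads, 0 *Foxp3* reads and 0 *Trbv13-2* reads. Of *Asap1*, *Tbc1d4* and *Rnf19a* alone, 14 of the 16 cells with *Trbv13-2* held none and 2 held 1, while 10 of the 16 cells without it held at least 1 and 2 held all 3.

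Pairs of genes shared cells unevenly. All 5 *Asap1* cells without *Trbv13-2* were among the 9 *Tbc1d4* cells (100% and 55.6% of each list), and 4 of the 5 *Rnf19a* cells were (80% and 44.4%). In P6- cells, 10 of 26 *Asap1* cells (38.5%) and 18 of 27 *Rnf19a* cells (66.7%) also held *Tbc1d4*, out of 44 *Tbc1d4* cells. *Tox* and *Maf* cells overlapped in 4 cells without *Trbv13-2*, 50% of each list. All cells in a group came from the same sort, and deeper cells can hold more genes, so these overlaps are given as counts only.

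**Figure D2:**
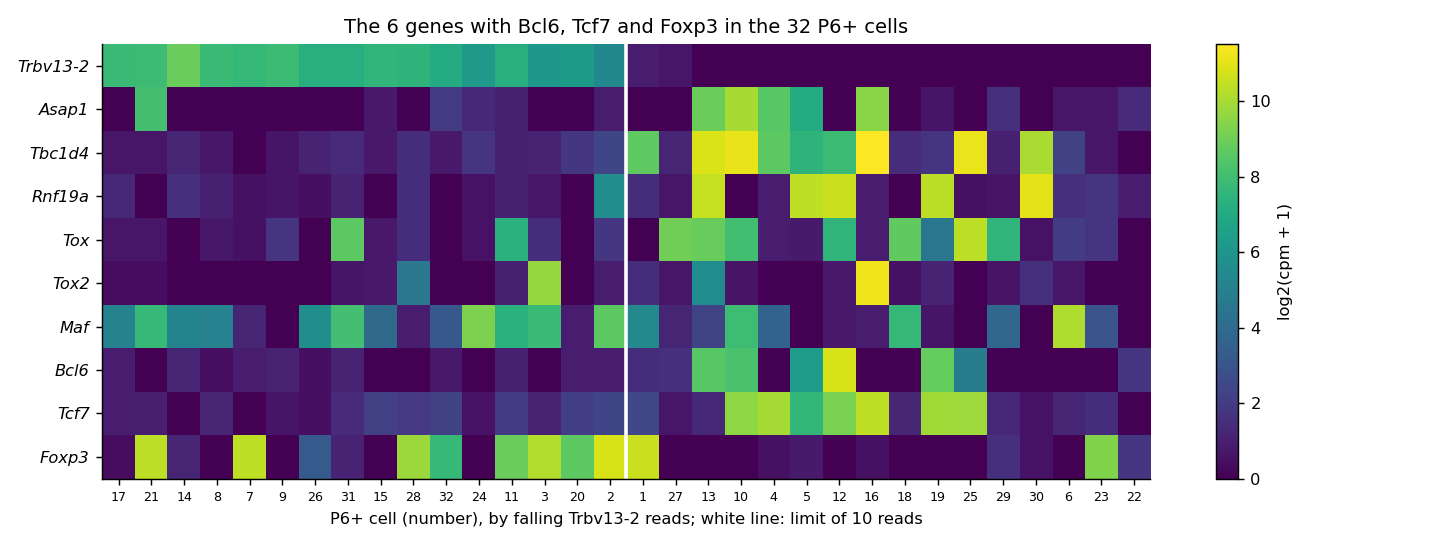
Level of *Trbv13-2*, the 6 genes, *Bcl6*, *Tcf7* and *Foxp3* in each of the 32 P6+ cells (columns, ordered by falling *Trbv13-2* reads), as log2(cpm + 1) by colour. The white line separates cells with 10 or more *Trbv13-2* reads from the others, and the 9 *Tbc1d4* cells and 6 *Bcl6* cells all lie to its right.

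*Bcl6* reached 10 reads in 6 P6+ cells, with 60 to 2547 reads, all of them without *Trbv13-2*. At a limit of 1 read it was present in 11 of 16 cells with and 9 of 16 cells without *Trbv13-2*, so this separation too is one of read number. Of these 6, 5 held *Tbc1d4* (83.3%, interval 35.9 to 99.6%), 5 held *Tox*, 4 held *Rnf19a* (66.7%, interval 22.3 to 95.7%), 3 held *Asap1*, 2 held *Maf* and 1 held *Tox2*. Of the 26 P6+ cells without *Bcl6*, 4 held *Tbc1d4* (15.4%, interval 4.36 to 34.9%), 5 held *Tox*, 2 held *Rnf19a* (7.69%, interval 0.946 to 25.1%), 3 held *Asap1*, 18 held *Maf* and 3 held *Tox2*. Most *Bcl6* cells thus held *Tbc1d4* and *Tox*, and *Maf* was held by a larger share of the cells without *Bcl6*. These shares also contain the split by *Trbv13-2*. Within the 16 cells without *Trbv13-2*, *Tbc1d4* was held by 5 of 6 cells with *Bcl6* and by 4 of 10 without, *Rnf19a* by 4 of 6 and 1 of 10, *Tox* by 5 of 6 and 3 of 10, *Asap1* by 3 of 6 and 2 of 10, and *Maf* by 2 of 6 and 6 of 10. The exact intervals overlapped for *Tbc1d4* (35.9 to 99.6% and 12.2 to 73.8%) and for *Rnf19a* (22.3 to 95.7% and 0.253 to 44.5%).

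P6- cells gave a readout of the same pairs that the choice of genes did not use. *Bcl6* reached 10 reads in 12 of them. *Tbc1d4* was held by 6 of these 12 (50%, interval 21.1 to 78.9%) and by 38 of the other P6- cells (32.5%, interval 24.1 to 41.8%), and its pooled level was lower with *Bcl6* (287 cpm) than without (501 cpm). *Tox* was held by 6 of the 12 and by 25.6% of the others, *Rnf19a* by 3 of the 12 and by 20.5% of the others, *Asap1* by 3 and by 19.7%, and *Maf* by 3 and by 21.4%. *Tox2* was held by 3 of 12 cells with *Bcl6* (25%, interval 5.49 to 57.2%) and by 4 cells without (3.42%, interval 0.939 to 8.52%). The intervals of every gene overlapped in P6- cells. Over cells, Spearman's rho of each gene with *Bcl6* lay between -0.34 and 0.29 in the 32 P6+ cells and between -0.12 and 0.12 in the P6- cells. The P6+ cells share 1 mouse, and cells of both groups differ in depth. In counts this sparse these values are no finding.

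**Figure D3:**
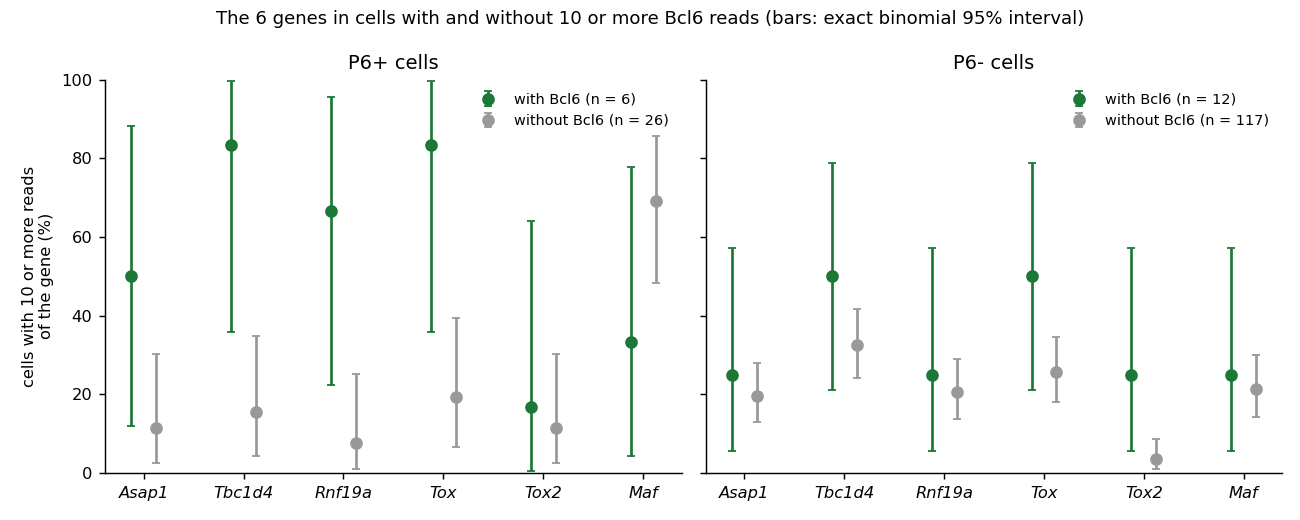
Share of cells with 10 or more reads of each gene among cells with and without 10 or more *Bcl6* reads, in P6+ cells (left) and P6- cells (right). Points are shares in percent and bars are exact binomial 95% intervals. In P6+ cells *Tbc1d4* is at 83.3% with *Bcl6* and 15.4% without, and in P6- cells at 50% and 32.5%. Within the 16 P6+ cells without *Trbv13-2*, which hold all 6 *Bcl6* cells, *Tbc1d4* is at 83.3% and 40%.

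*Tcf7* and *Foxp3* were read against the genes in the same way. *Tcf7* reached 10 reads in 7 P6+ cells, all without *Trbv13-2*, and 6 of these 7 held *Tbc1d4*, compared with 3 of 9 of the other cells without *Trbv13-2*. Among P6- cells, 45 held *Tcf7*. *Rnf19a* was held by 18 of them (40%, interval 25.7 to 55.7%) and by 9 of the 84 others (10.7%, interval 5.02 to 19.4%), and its pooled levels were 515 and 82.9 cpm. *Tbc1d4* was held by 22 of 45 (48.9%, interval 33.7 to 64.2%) and 22 of 84 (26.2%, interval 17.2 to 36.9%), with overlapping intervals. In P6- cells the intervals by *Tcf7* did not overlap for *Rnf19a* and overlapped for each other gene. *Tcf7* was named after its values were seen, and the cells differ in depth. The intervals cover counting error only, so nothing more is read from this. In P6+ cells without *Trbv13-2*, *Rnf19a* was held by 3 of 7 cells with *Tcf7* and 2 of 9 without, with overlapping intervals, at 464 and 523 cpm. For *Foxp3*, held by 19 P6- cells, *Asap1* was held by 0 of 19 (0%, interval 0 to 17.6%) and 26 of the 110 others (23.6%, interval 16.1 to 32.7%), and *Tbc1d4* by 2 of 19 (10.5%, interval 1.30 to 33.1%) and 42 of 110 (38.2%, interval 29.1 to 47.9%). *Maf* had the higher share with *Foxp3* in P6- cells, with 8 of 19 (42.1%, interval 20.3 to 66.5%) and 20 of 110 (18.2%, interval 11.5 to 26.7%). The intervals overlapped for each of these 3 genes. In P6+ cells with *Trbv13-2*, *Maf* had the lower share with *Foxp3*, at 6 of 9 cells (66.7%) and 6 of 7 without (85.7%). Over all P6+ cells it was held by 8 of 11 cells with *Foxp3* (72.7%) and 12 of 21 without (57.1%), at 101.8 and 116.8 cpm, again with overlapping intervals.

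Whether the genes differed by tetramer binding was asked over all P6+ and passing P6- cells. *Maf* was the only one of the 6 past 2-fold, at 112.2 cpm (interval 109.5 to 114.95) in P6+ and 41.4 cpm (40.5 to 42.3) in P6- cells, a log2 ratio of 1.42. It reached 10 reads in 20 of 32 (62.5%, interval 43.7 to 78.9%) and 28 P6- cells (21.7%, interval 14.9 to 29.8%). These shares depend on depth and on the limit. After thinning, *Maf* was held by 10 of 16 P6+ cells with *Trbv13-2*, 4 of 16 without and 24 P6- cells (18.6%). At 50 reads the numbers were 10, 3 and 20. The median P6+ cell held 4396 genes, against 3432 in P6- cells. How many of all genes differed in detection as *Maf* did was not counted. The level per cell ranged from 0 to 1125 cpm (median 12.5) in P6+ and from 0 to 2100 cpm (median 0.588) in P6- cells, so the ranges overlapped. Past 2-fold higher were 23.9% of 9029 genes and past 2-fold lower 29.3%, so that 1 of 6 is near this background. Against the 11 P6- cells of the same name prefix, with *Maf* at 16.6 cpm and in 4 of 11 cells, the ratio was 2.69. In that comparison 60.6% of tested genes lay at or below the ratio of *Maf*, and 83% did in the comparison with all P6- cells. Without cells that held 10 *Cd74* reads, 18 of the 32 P6+ cells remained and the ratio was 0.04, which ends the call. *Maf* was then at 44.7 and 43.4 cpm, but was still held by 11 of 18 (61.1%, interval 35.7 to 82.7%) and 21 of the P6- cells (18.8%, interval 12 to 27.2%).

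The other 5 genes lay within 2-fold between P6+ and P6- cells, with log2 ratios of -0.84 for *Tox*, -0.45 for *Asap1*, -0.18 for *Tbc1d4*, 0.07 for *Rnf19a* and 0.56 for *Tox2*. Both sides of the split entered the P6+ value. P6- cells held *Tbc1d4* at 0 to 5252 cpm (median 1.59) and in 34.1% of cells, *Tox* in 36 cells (27.9%), *Rnf19a* in 27 (20.9%), *Asap1* in 26 (20.2%) and *Tox2* in 7 (5.43%). P6+ cells without *Trbv13-2* were past 2-fold higher than P6- cells for *Tox2* (log2 ratio 1.26), *Maf* (1.21) and *Rnf19a* (1.08), and within 2-fold for *Tbc1d4* (0.85), *Asap1* (0.37) and *Tox* (0.01). In this comparison 23% of 8629 genes were past 2-fold higher and 39.2% past 2-fold lower. The values of *Tox2* and *Maf* rested on 1 P6+ cell each, with 97.4% and 62.4% of the reads, and the values share cells with the comparisons above. That of *Rnf19a* rested on 5 of 16 P6+ cells, 1 of which supplied 30.8% of the reads. *Rnf19a* had also been chosen for low values in expanded cells. Against P6- cells of the same name prefix the ratio of *Tox2* turned from 0.56 to -0.77, where 1 of the 11 cells supplied 95.4% of the reads.

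The split by *Trbv13-2* could also be made in P6- cells, which did not bind the tetramer. *Tbc1d4* was held by 8 of 26 P6- cells with *Trbv13-2* (30.8%, interval 14.3 to 51.8%) and by 36 cells without (34.95%, interval 25.8 to 44.98%), at 527 and 470 cpm, a log2 ratio of 0.16. *Asap1* was held by 26.9% and 18.4% of these cells, with a log2 ratio of 0.28, and *Maf* by 23.1% and 21.4%, with a log2 ratio of -0.29. On the side with *Trbv13-2*, 1 cell supplied 80.2% of the *Maf* reads and 1 cell 52.5% of the *Asap1* reads. The ratios without these cells were not computed. The log2 ratios of *Tbc1d4* and *Asap1* were within 2-fold in P6- cells, and at -8.65 and -2.75 in P6+ cells. Both genes were chosen for low values in P6+ cells, so nothing is read from that contrast. The difference between the 2 splits was not tested. Past 2-fold lower in the P6- split were 36.5% of 8578 genes, and past 2-fold higher 22.8%. *Rnf19a*, chosen in the same way as *Tbc1d4* and *Asap1*, was held by 11.5% and 23.3%. Its log2 ratio was -1.52, past 2-fold lower as in the P6+ split. *Tox* had a log2 ratio of 2.12, with 45.4% of the higher reads from 1 cell, at shares of 26.9% and 28.2% of cells. *Tox2* reached 10 reads in 0 of 26 cells with *Trbv13-2* (interval 0 to 13.2%) and in 7 cells without (6.80%, interval 2.78 to 13.5%), intervals that overlapped. Its pooled levels were 0.435 and 100.9 cpm, a log2 ratio of -6.15 and the widest of the 6 in this split, with 48.1% of the higher reads from 1 cell.

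**Figure D4:**
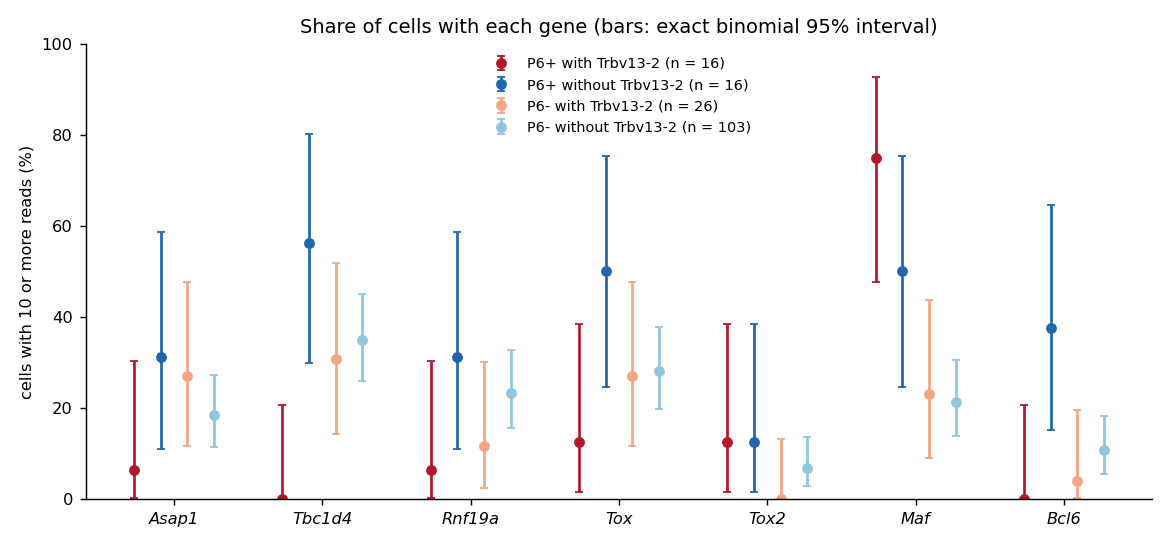
Share of cells with 10 or more reads of each gene, in percent, in P6+ and P6- cells with and without *Trbv13-2*. Bars are exact binomial 95% intervals. *Tbc1d4* and *Bcl6* are at 0 in P6+ cells with *Trbv13-2*, and *Tbc1d4* was chosen for low values there. *Tbc1d4* is at 30.8% and 34.95% in the P6- groups.

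The spread of the genes over the 8 name prefixes of P6- cells, with 11 to 24 cells each, shows how far such pooled values vary without a change of tetramer sign. *Tbc1d4* varied least, from 348 to 643 cpm, and was held by 29.2 to 42.9% of cells of a prefix. *Asap1* ranged from 30.95 to 308 cpm, *Rnf19a* from 47.3 to 355, *Tox* from 45.8 to 544 and *Maf* from 5.91 to 163. *Tox2* ranged from 0.169 to 402 cpm. P6+ cells with *Trbv13-2* lay below every prefix for *Tbc1d4* (1.16 cpm), *Rnf19a* (2.58), *Asap1* (29.7) and *Tox* (29.2), and inside the range for *Tox2* and *Maf*. P6+ cells without *Trbv13-2* lay above every prefix for *Tbc1d4* (868 cpm) and *Rnf19a* (497). *Tbc1d4*, *Rnf19a* and *Asap1* were chosen for low values in the cells with *Trbv13-2*, so nothing is read from their place, and *Asap1* lay just under the lowest prefix.

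**Figure D5:**
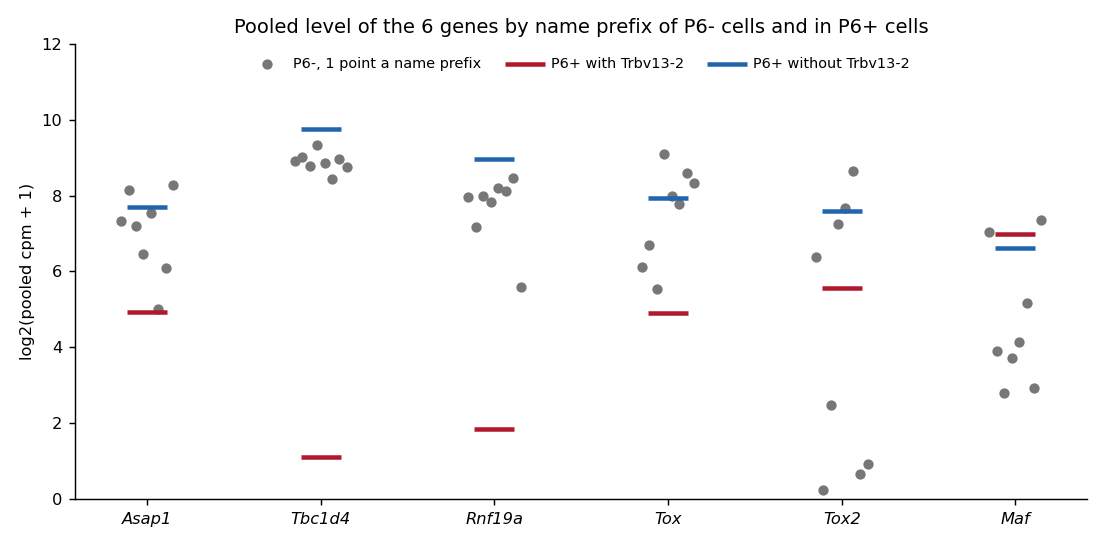
Pooled level of each gene, as log2(cpm + 1), for the P6- cells of each of 8 name prefixes (grey points) and for P6+ cells with (red) and without (blue) *Trbv13-2*. The grey points of *Tbc1d4* lie between 348 and 643 cpm and those of *Tox2* between 0.169 and 402 cpm.

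The genes were set beside others of the follicular programme. Of 18 identity genes, 13 reached a mean of 5 cpm in the P6+ split, of which 9 were past 2-fold lower with *Trbv13-2*, 3 higher and 1 within, with a median log2 ratio of -2.87 where that of all genes was 0.01. Of all genes, 33% were past 2-fold lower and 34.4% higher, and the lists below are to be read beside these shares. *Izumo1r*, the folate receptor 4 gene, was at 236 against 937 cpm, *Tnfsf8*, which encodes CD30 ligand, at 3.84 against 1116 cpm, and *Slamf6*, a homotypic adhesion receptor of the SLAM family, at 44.5 against 331 cpm. *Icos*, the costimulatory receptor, was at 2155 against 726 cpm and in 16 against 10 cells. The cytokine gene *Il21* had 0 reads in both groups, and *Cxcr5* reached 10 reads in 1 and 2 cells. *Il21* and *Cxcr5* were thus detected in few or no cells on either side, while *Bcl6* reached 10 reads in 6 of 16 cells without *Trbv13-2*, and no P6+ cell is named a follicular helper cell here. Between P6+ and P6- cells the same 13 genes had 2 higher, 4 lower and 7 within 2-fold, with a median of 0.06, beside 23.9% of all genes higher and 29.3% lower.

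Among 14 genes upstream of *Bcl6*, 13 could be read in the split, with 2 higher, 6 lower and 5 within 2-fold (median -0.59). The list was not sorted into activators and repressors, so its counts and median carry no direction. *Stat3*, the transducer of IL-6 and IL-21, was at 691 against 1488 cpm, *Cd28* at 503 against 1252 cpm, *Nfatc1* at 367 against 553 cpm, *Batf*, an AP-1 factor, at 622 against 135.2 cpm and *Klf2*, a factor of naive and recirculating T cells, at 58.5 against 703 cpm. *Tcf7*, named after its values were seen, was at 1.42 against 396 cpm and in 0 and 7 cells. Of 14 genes that oppose the follicular programme, 6 were higher, 3 lower and 5 within (median 0.98). *Il2rb*, a chain of the IL-2 receptor, was at 1289 against 1265 cpm, *Selplg*, the P-selectin ligand, at 1640 against 845 cpm, the chemokine receptor gene *Ccr7* at 886 against 758 cpm, and *S1pr1*, the receptor for lymph node exit, at 113.2 against 1267 cpm. The repressor *Prdm1*, named after its values were seen, was at 27.2 against 0.172 cpm and in 3 and 0 cells. Of 13 regulatory T cell genes, 7 were higher, none lower and 6 within (median 1.14), with *Tnfrsf4*, which encodes OX40, at 3785 against 3545 cpm, *Klrg1* at 1751 against 749 cpm and *Capg* at 2024 against 374 cpm. Against P6- cells, the P6+ cells had 2 upstream genes higher, 4 lower and 8 within, and 3 opposing genes higher, 2 lower and 9 within, with medians of -0.41 and 0.70, beside the same 23.9% and 29.3% of all genes. Of the 13 regulatory T cell genes, 7 were higher in P6+ cells, none lower and 6 within (median 1.20). Of 7 genes of naive T cells, none was higher, 4 were lower and 3 within (median -1.24), and in the split 2 were higher, 3 lower and 2 within (median -0.01).

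Known partners of the 6 genes were read against the same shares of 34.4% of all genes higher and 33% lower, and against the median of 0.01. For *Asap1*, 8 of 11 genes of its ARF substrates and binding partners could be read, of which 5 were past 2-fold higher with *Trbv13-2*, 1 lower and 2 within (median 1.42). *Arf4* was at 892 against 574 cpm, *Arf1* at 920 against 355 cpm and *Arf6* at 348 against 643 cpm. For *Tbc1d4*, 11 of 13 genes gave 5 higher, 2 lower and 4 within (median 0.20), with the RAB gene *Rab14* at 137.9 against 331 cpm and the 14-3-3 gene *Ywhaz* at 950 against 943 cpm. For *Rnf19a*, 7 of 9 gave 1 higher, 1 lower and 5 within (median 0.20), with the E2 enzyme gene *Ube2d3* at 541 against 1441 cpm and *Sod1* at 686 against 715 cpm. Of 10 genes linked to c-MAF, 5 could be read, with 3 higher, 1 lower and 1 within (median 1.57). *Ctla4*, an inhibitory receptor, was at 938 against 615 cpm. *Il10*, named after its values were seen, reached 10 reads in 3 cells with *Trbv13-2* and 0 without, at 59.7 against 0 cpm. Close relatives of the 6 genes were sparse, and 4 of 11 could be read. *Tbc1d1*, the nearest relative of *Tbc1d4*, was at 80.7 against 0.0686 cpm and in 3 and 0 cells, and *Mafg* at 99.1 against 1.27 cpm and in 2 and 1 cells, while *Tox4* was at 3.28 against 329 cpm and in 1 and 3 cells.

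Genes whose level per cell was most like that of each member were found over the 32 P6+ cells among 2292 genes, by Pearson's r of log2(cpm + 1). *Tnfsf8* came first for both *Tbc1d4* (r = 0.74) and *Rnf19a* (r = 0.70), and shared 7 of the 9 *Tbc1d4* cells and 5 of the 6 *Rnf19a* cells. In the P6- cells the same values were 0.35 and 0.15. *Tbc1d4* was next most like *Eif3g* (0.63) and *Gm48942* (0.61), and *Rnf19a* most like *Bag6* (0.68) and *Slc25a39* (0.62). *Asap1* was most like *Itgb1* (0.70), *S1pr1* (0.62) and *Wasf2* (0.58), and *Tox* most like *Kdm5a* (0.58), *Vps37b* (0.55) and *Rgs10* (0.55). *Maf* was most like *Irf1* (0.63), *Samhd1* (0.63) and *Itgb7* (0.56), while the values of *Tox2*, which rest on 4 cells, were under 0.50 for *Cyfip2*, *Gpbp1l1* and *Rps26-ps1*. Except for *Tnfsf8* with *Tbc1d4*, r in P6- cells lay between -0.11 and 0.16 for all of these pairs. The P6+ cells share 1 mouse and the split by *Trbv13-2*, and the values are a description.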

How the data were processed

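Single-cell Smart-Seq2 libraries of 176 cells were mapped by the authors with STAR 2.6.0a to GRCm38 (Ensembl annotation), and reads per gene were counted. FastQC 0.11.7 and SAMtools 0.1.19 were also named in the submitters' processing notes. The deposited counts are neither normalized nor filtered. Whether counting used strand is not given in the sources used here, so reads of *Tox* and *Maf* cannot be told from those of antisense genes that share 260 and 440 exonic bases. Counts of repeated gene names were averaged, cells filtered, and reads pooled per group as cpm. The study's limit on the mapping rate was not applied here, so more P6- cells were used here than the study kept. A gene was called present at 10 reads and different past 2-fold, with a pseudocount of 1 cpm, among genes with a mean of 5 cpm. The 95% intervals are exact Poisson for reads and exact binomial for shares, and leave out amplification, as the libraries carry no molecular identifiers. Doublets were not called in these single-cell wells. The calculation of the pooled ratios was checked on simulated Poisson counts. These held no variation between cells, so the check does not bear on ratios that rest on single cells.

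Groups followed the tetramer label and then *Trbv13-2* reads. The genes and lists were chosen with earlier results of these data known. Text names the 6 genes, *Bcl6*, *Trbv13-2* and *Foxp3*, list genes first by pooled cpm in P6+ cells, and the 3 most similar genes per member among those with 10 reads in 8 or more P6+ cells. Alternatives were other averages, pseudocounts, TMM (edgeR 4.0.16), DESeq2 1.42.0 size factors, limits, thinning and left-out cells. Python 3.11.15, pandas 2.3.3, scipy 1.17.1 and R 4.3.3 were used.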

Additional observations from a re-analysis of the deposited data

How the results depend on the processing

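The count of genes past 2-fold lower with *Trbv13-2* was 5 in 12 of the 13 alternatives and 4 with the mean of log2(cpm + 1), and that of genes past 2-fold higher in P6+ than in P6- cells was 1 in each of 13. In the latter the gene was *Tox2*, at 1.79, and not *Maf* when cells with *Cd74* were left out. Leaving out the top cell of each group put *Tox* past 2-fold lower in P6+ than in P6- cells, at -1.06. P6+ cells with *Bcl6* and at least 1 of the 6 genes numbered 6, and 20 at a limit of 1 read. The share of genes past 2-fold lower in the split was 33%, and 17.6% over all genes with a read. P6+ cells with any of the 6 genes numbered 28, and 24 to 32 under the other limits and after thinning. Alternatives to the log2 ratios were run only for the P6+ split and for P6+ against P6- cells. In these, no log2 ratio past 2-fold in the values as reported changed sign. Ratios within 2-fold did for every gene but *Asap1*. Between P6+ and P6- cells, for example, *Tox* was at 0.24 with the mean of log2(cpm + 1). *Tox2* was at -0.77 against P6- cells of the same prefix and at -0.60 without the top cells. Low reads in most cells limit what a share at 10 reads can show. No paired analysis was possible because the P6+ cells came from 1 mouse and the cell numbers, given in accession order, pair nothing.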
